A study of Rattus norvegicus with 16 samples.

Results

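The genes of oxidative phosphorylation were followed in rat Schwann cells and in whole sciatic nerve, uncrushed and after a crush. Members were chosen by symbol, as the subunits of respiratory complexes I to V named Nduf, Sdh, Uqcr, Cox and Atp5, together with the protein-coding genes of the mitochondrial genome. The pattern found 96 of the 31038 genes in the files. Of these, 13 lie in the mitochondrial genome and 83 in the nucleus. The mitochondrial members are 7 subunits of complex I, 1 of complex III, 3 of complex IV and 2 of complex V. The nuclear members are 37 subunits of complex I, 4 of complex II, 8 of complex III, 17 of complex IV and 15 of complex V, and 2 genes that carry an Atp5 symbol and are not counted here as subunits, Atp5s and Atp5sl.

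RNA was sequenced from Schwann cells and from whole nerve in 16 libraries, 2 for each of 8 groups: uncrushed, and 3, 5 and 7 days after crush, in each tissue. Each library pooled at least 10 nerves of rats whose age the labels give as postnatal day 18, the age at crush. Schwann cells were isolated by immunopanning, in which dishes coated with antibodies against CD45 and Thy1 deplete leukocytes and fibroblasts and a dish against the glycolipid antigen O4 retains Schwann cells, whereas RNA of whole nerve came from undissociated tissue. Crushed nerves contributed the segment distal to the crush and uncrushed nerves the matching segment, without a sham operation, so days after crush and age at collection cannot be told apart. No strain, genotype or sex is given, and no label says that the libraries of a group came from separate cohorts, so p-values measure the spread between these pools. Expected counts summed to between 10555067 and 27562637 per library.

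Oxidative phosphorylation couples the transfer of electrons along complexes I to IV of the inner mitochondrial membrane to the pumping of protons, and complex V uses the proton gradient to make ATP. Complexes I, III, IV and V are assembled from subunits of both genomes, whereas complex II is encoded by the nucleus alone. The mitochondrial genome is transcribed within the organelle as long precursors from both strands, so its transcripts depend on a separate transcription machinery and on the number of genome copies. Schwann cells use mitochondria for their own metabolism and for the support of axons.

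Promoters of nuclear members were read from RefSeq (assembly GRCr8), 250 bases before to 50 bases after each gene start. A transcript matched for 76 of the 83 nuclear members and a promoter was listed for 67. Letters tied by textbook knowledge to 3 factors that act on respiratory chain genes were searched on both strands: TGCGCA for a site of NRF1, CCGGAAG for the GABPA core and ATGGCG for the YY1 core, none of which contains another. TGCGCA reads the same on both strands. TGCGCA was in 20 of the 67 promoters (29.9%) and in 7.68% of all 27457 promoters. CCGGAAG was in 19 (28.4%, against 9.22%), and ATGGCG was in 22 (32.8%, against 10.6%). A match is a string of letters and not a bound site. The promoters of all genes were not matched to those of the members for base content or expression. ATGGCG begins with the start codon ATG, so a match after the gene start can also be coding sequence. The promoters of 3 genes that rose in Schwann cells at all 3 days (Cox5b, Atp5g2, Ndufb6) and of 1 that fell in whole nerve at all 3 days (Ndufs4) are shown 5′ to 3′, with the searched letters in capitals.
Cox5b (chr9:46417587-46417886, plus strand): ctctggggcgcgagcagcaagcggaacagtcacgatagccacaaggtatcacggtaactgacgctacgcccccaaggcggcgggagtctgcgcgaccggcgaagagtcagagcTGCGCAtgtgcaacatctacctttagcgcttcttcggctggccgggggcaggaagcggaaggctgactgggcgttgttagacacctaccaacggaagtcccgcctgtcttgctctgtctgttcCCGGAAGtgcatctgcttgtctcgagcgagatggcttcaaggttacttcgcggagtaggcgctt
Atp5g2 (chr7:135678169-135678468, minus strand): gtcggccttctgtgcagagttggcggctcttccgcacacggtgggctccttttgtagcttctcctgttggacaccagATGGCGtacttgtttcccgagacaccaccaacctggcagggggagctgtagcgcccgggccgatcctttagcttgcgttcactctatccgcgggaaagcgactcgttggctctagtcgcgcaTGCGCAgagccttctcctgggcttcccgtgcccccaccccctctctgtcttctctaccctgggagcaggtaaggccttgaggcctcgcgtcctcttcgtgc
Ndufb6 (chr5:60206103-60206402, minus strand): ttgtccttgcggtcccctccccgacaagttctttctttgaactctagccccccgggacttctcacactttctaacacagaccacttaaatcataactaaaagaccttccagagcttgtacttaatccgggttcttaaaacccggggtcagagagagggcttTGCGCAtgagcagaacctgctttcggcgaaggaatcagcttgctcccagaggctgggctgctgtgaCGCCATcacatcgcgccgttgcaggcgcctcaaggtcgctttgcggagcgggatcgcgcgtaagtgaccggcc
Ndufs4 (chr2:47794865-47795164, minus strand): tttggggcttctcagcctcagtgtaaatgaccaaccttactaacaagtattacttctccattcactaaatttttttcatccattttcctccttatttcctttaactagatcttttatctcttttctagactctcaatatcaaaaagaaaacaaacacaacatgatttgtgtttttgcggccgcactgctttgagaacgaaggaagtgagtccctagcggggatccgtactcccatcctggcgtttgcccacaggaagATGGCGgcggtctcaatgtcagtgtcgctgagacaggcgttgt
Cox5b holds the NRF1 and GABPA letters, Atp5g2 and Ndufb6 hold the NRF1 and YY1 letters, and Ndufs4 holds the YY1 letters alone, just after its start. The promoter of Ndufa4, which also rose at all 3 days in Schwann cells, holds none of the searched letters.

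The mitochondrial members took a far larger part of the libraries than the nuclear members, most of all in uncrushed whole nerve. In uncrushed whole nerve the 13 mitochondrial genes held 15.6% and 14.2% of all expected counts. At day 3 they held 6.44% and 6.63%, at day 5 they held 6.39% and 6.24%, and at day 7 they held 7.81% and 8.83%. Both uncrushed libraries stood above all 6 crushed ones. In Schwann cells the same genes held 2.90% and 3.65% when uncrushed, 5.70% and 5.86% at day 3, 4.12% and 3.21% at day 5, then 4.86% and 5.44% at day 7. Uncrushed and day 5 Schwann cells overlapped, and both lay below days 3 and 7.

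The 83 nuclear members together held less than 1 count in 100. In Schwann cells their share was 0.297% and 0.282% uncrushed, 0.399% and 0.398% at day 3, 0.420% and 0.448% at day 5, then 0.420% and 0.400% at day 7. In whole nerve it was 0.476% and 0.471% uncrushed, 0.670% and 0.663% at day 3, 0.615% and 0.574% at day 5, then 0.600% and 0.558% at day 7. In both tissues the crushed libraries lay above the uncrushed ones. A fall of the mitochondrial share raises every other share, so the nuclear share was also taken over the counts outside the 13 mitochondrial genes. It was then 0.564% and 0.549% in uncrushed whole nerve against 0.612% to 0.716% after crush, and 0.306% and 0.293% in uncrushed Schwann cells against 0.422% to 0.463% after crush. In whole nerve the direction depends on the scale. The TMM factors used for the tests (trimmed mean scaling of library sizes) were 0.811 and 0.808 in uncrushed whole nerve and 1.06 to 1.09 after crush, and on that scale the median nuclear member was below its uncrushed level at days 5 and 7.

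The number of mitochondrial counts per nuclear count summarises the relation of the genomes. It was 32.8 and 30.1 in uncrushed whole nerve and 9.61 and 10.0 at day 3, with 10.4 and 10.9 at day 5, then 13.01 and 15.8 at day 7. In Schwann cells it was 9.78 and 12.9 uncrushed, 14.3 and 14.7 at day 3, 9.81 and 7.16 at day 5, then 11.6 and 13.6 at day 7. Uncrushed whole nerve stood apart, and the libraries of the other groups ranged from 7.16 to 15.8. These sums are described without a test. In bulk RNA, fewer cells of a type and less RNA per cell cannot be told apart, and this holds for every whole nerve value given here.

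**Figure D1:**
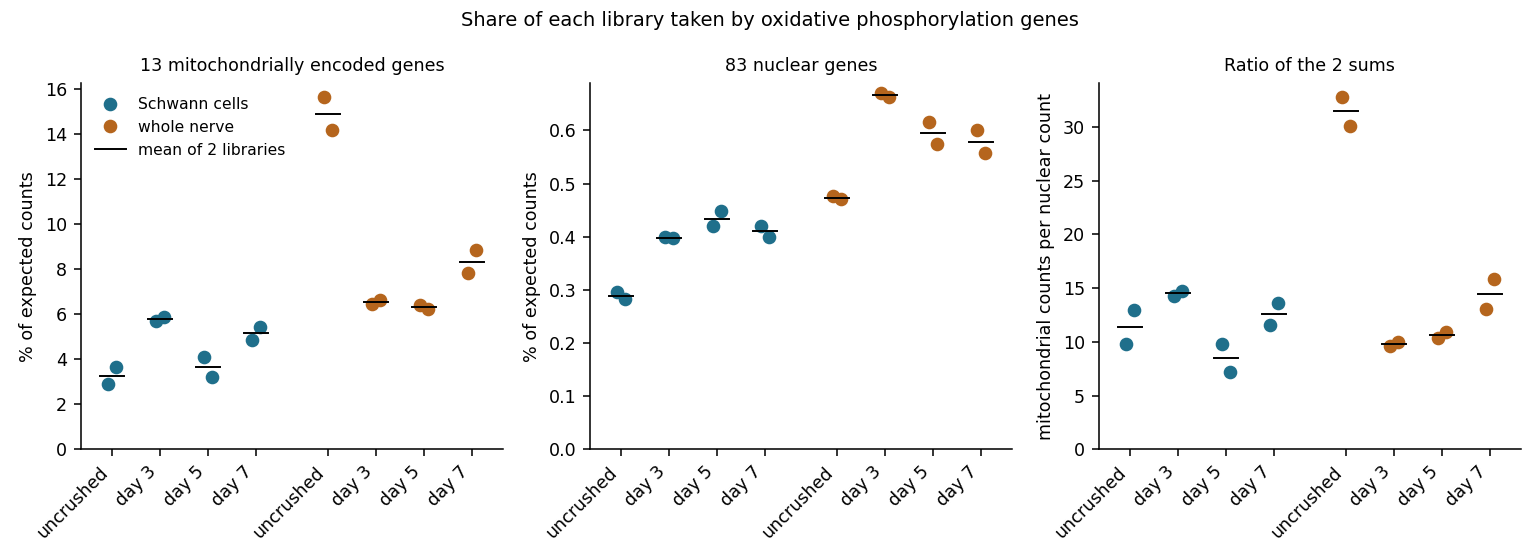
The share of expected counts held by the 13 mitochondrial genes (left, percent), by the 83 nuclear members (middle, percent) and the ratio of both sums (right), by group, with a point per library and a line at the mean of 2 libraries. Uncrushed whole nerve holds 15.6% and 14.2% mitochondrial counts and 32.8 and 30.1 mitochondrial counts per nuclear count, above every other library.

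Levels of different genes were compared per length, as TPM (transcripts, scaled to the same total in each library). COX1, the catalytic subunit of complex IV, was the most abundant member in each group, with group means of 21920 TPM in uncrushed Schwann cells and 68692 TPM in uncrushed whole nerve. It held 37.5% to 44.5% of the mitochondrial counts of a library. ND3 and ND6, both subunits of complex I, were the lowest mitochondrial members in uncrushed Schwann cells, at 327 and 416 TPM. The highest nuclear members there were Atp5b, the catalytic beta subunit of complex V, at 866 TPM and Cox7c, a small subunit of complex IV, at 789 TPM. In uncrushed whole nerve Cox7c led the nuclear members at 925 TPM, below the 1184 TPM of ND3.

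In Schwann cells after crush, most nuclear members rose and stayed higher, whereas the mitochondrial members were higher at days 3 and 7 and none was called at day 5. At day 3, 50 of 76 nuclear members tested were higher and 2 lower (Ndufs4 and the record named Cox7a1) than in uncrushed Schwann cells, and 11 of 13 mitochondrial members were higher and none lower. Of all 14961 genes tested, 26.9% were higher and 25.7% lower, 52.5% in all. The median log2 fold change was 0.67 for nuclear members, 0.62 for mitochondrial members and 0.00 for all genes. At day 5, 60 nuclear members were higher and 1 lower (29.0% and 25.6% of all genes, 54.6% in all), and 0 mitochondrial members were called by edgeR, against 1 at an unadjusted p below 0.05 and 1 called by DESeq2. The medians were 0.65 for nuclear members, -0.07 for mitochondrial members and 0.06 for all genes. At day 7, 53 nuclear members were higher and 1 lower, and 10 mitochondrial members were higher (25.0% and 21.9% of all genes, 46.9% in all). The medians were then 0.62, 0.71 and 0.06. The 3 comparisons share the same 2 uncrushed libraries. The paper gives a far lower yield of cells per nerve for uncrushed than for crushed nerves. In Schwann cells, crush and the recovery of cells by the isolation therefore cannot be told apart.

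Of the 76 nuclear members tested, 47 were called higher at all 3 days, as were 18.6% of all genes, and 56 had all 6 crushed libraries above both uncrushed ones, as did 28.8% of all genes. No mitochondrial member was called at all 3 days. The mitochondrial members differed directly between the crushed days. From day 3 to day 5, 11 of 13 were lower and none higher, with 6.36% of all genes lower and 12.5% called in either direction, at a median of -0.70. Of the nuclear members, 2 were higher over the same step, with 6.09% of all genes higher: Ndufb8 and Ndufs8, both of complex I and named because the count is small. No nuclear member was called over this step without any 1 of the 4 libraries or by DESeq2. From day 5 to day 7, 6 mitochondrial members were higher (1.18% of all genes higher, 0.769% lower, 1.95% in all) at a median of 0.75, and by edgeR no nuclear member was called, against 5 at an unadjusted p below 0.05. These steps were added to the comparisons after the data had been seen.

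The calls of the mitochondrial steps rest on few libraries, whereas all 13 members kept their direction without any 1 of these libraries. The median without 1 library ran from -0.59 to -0.88 for day 3 to day 5. For day 5 to day 7 it ran from 0.54 to 0.87. Against 11 lower from day 3 to day 5, there were 4 without day 3 replicate 1, 3 without day 3 replicate 2, 8 without day 5 replicate 1 and 2 without day 5 replicate 2. Against 6 higher from day 5 to day 7, there were 0 without day 5 replicate 2, 4 without day 5 replicate 1 and 2 without either library of day 7. For day 5 against uncrushed, 4 were higher without uncrushed replicate 2, 1 was higher without day 5 replicate 2, 3 were lower without day 5 replicate 1 and 1 was lower without uncrushed replicate 1. Day 5 replicate 2 had the lowest mitochondrial share of the crushed Schwann cell libraries.

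**Figure D2:**
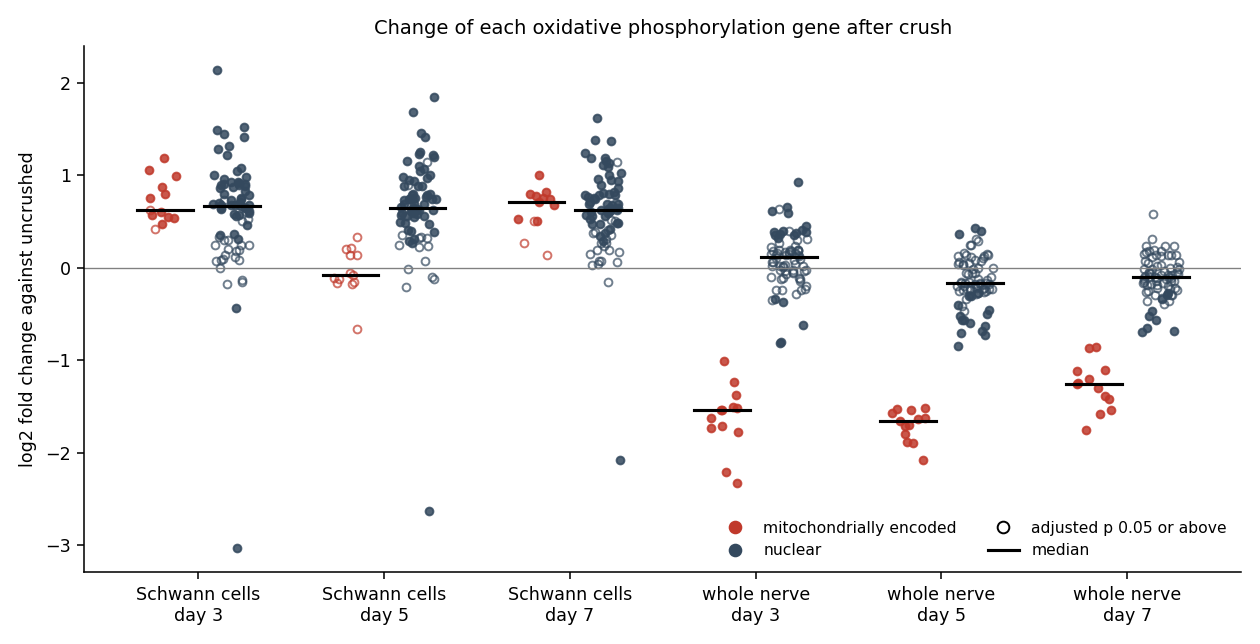
Log2 fold change against uncrushed of every tested oxidative phosphorylation gene, in Schwann cells and whole nerve at days 3, 5 and 7, with filled points for adjusted p below 0.05 (edgeR) and a line at the median. The medians of the mitochondrial genes are 0.62, -0.07 and 0.71 in Schwann cells and -1.54, -1.66 and -1.25 in whole nerve.

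Complex I, the entry point for electrons from NADH, had 7 mitochondrial subunits, and all 7 rose in Schwann cells at day 3 and at day 7. ND1, a membrane subunit next to the quinone site, was at 719 and 1379 CPM (counts scaled for library size by TMM over the 16 libraries) when uncrushed, 2306 and 2351 at day 3, 1414 and 975 at day 5, then 1911 and 2217 at day 7. Both day 3 and both day 7 libraries exceeded the uncrushed ones, and day 5 overlapped them. The log2 fold change of ND1 was 1.18 ± 0.27 (SE, n = 2 against 2) at day 3, with an edgeR adjusted p of 0.00479, and 0.21 ± 0.27 at day 5, with an edgeR adjusted p of 0.522. ND2, a proton-pumping membrane subunit, was at 1258 and 1422 CPM uncrushed, 1962 and 1934 at day 3, 1293 and 1208 at day 5, then 1902 and 2300 at day 7. Day 5 libraries overlapped the uncrushed ones, and days 3 and 7 lay above both. Its log2 fold changes against uncrushed were 0.57 ± 0.12 at day 3, -0.07 ± 0.12 at day 5 and 0.67 ± 0.12 at day 7 (edgeR adjusted p of 0.00274, 0.615 and 0.00135).

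Of the 36 nuclear subunits of complex I tested, 23 were higher and 1 lower at day 3, 28 were higher at day 5 and 22 at day 7, where 26.9%, 29.0% and 25.0% of all genes were higher. Ndufa4, a subunit first assigned to complex I and also found with complex IV, was at 20.4 and 29.4 CPM uncrushed, 66.4 and 69.6 at day 3, 66.0 and 63.9 at day 5, then 60.0 and 55.8 at day 7. All 6 crushed libraries were above both uncrushed ones, and its log2 fold change at day 3 was 1.49 ± 0.16 (edgeR adjusted p = 3.7e-05). Ndufb6, an accessory subunit of the membrane arm, went from 15.3 and 14.4 CPM to 32.4 and 29.1 at day 3, 31.5 and 30.9 at day 5, then 31.2 and 31.3 at day 7. Its rise of 1.08 ± 0.12 at day 3 (edgeR adjusted p = 4.46e-05) was thus nearly the same at each day, without overlap. Ndufs1, the largest iron-sulfur subunit, rose by 0.70 ± 0.10 at day 3, and Ndufab1, an acyl carrier protein within the complex, rose by 0.79 ± 0.11 (edgeR adjusted p of 0.000331 and 0.000277).

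Ndufs4, which supports assembly and stability of the NADH-binding arm, was the complex I subunit that fell in Schwann cells. It was at 86.9 and 85.3 CPM uncrushed, 58.1 and 66.0 at day 3, 81.6 and 76.2 at day 5, then 83.1 and 91.6 at day 7. Day 3 and day 5 libraries lay below both uncrushed ones, and only day 3 passed the test, with a log2 fold change of -0.44 ± 0.11 (edgeR adjusted p = 0.00708), against -0.10 ± 0.11 at day 5 and 0.04 ± 0.11 at day 7. Without day 3 replicate 1 the day 3 call was lost (edgeR adjusted p = 0.0573). Ndufv2, another iron-sulfur subunit of the same arm, was at 24.8 and 24.8 CPM uncrushed and 19.9 to 29.1 CPM after crush, and no day passed the test.

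Complex II, succinate dehydrogenase, links the tricarboxylic acid cycle to the chain, and 3 of its 4 subunits rose in Schwann cells at each day, as did 26.9%, 29.0% and 25.0% of all genes at days 3, 5 and 7. Sdhb, the iron-sulfur subunit, was at 28.6 and 26.6 CPM uncrushed, 39.9 and 44.2 at day 3, 40.9 and 39.2 at day 5, then 38.6 and 37.0 at day 7. Its crushed and uncrushed libraries did not overlap, and its log2 fold change at day 3 was 0.64 ± 0.11 (edgeR adjusted p = 0.000868). The membrane anchors Sdhc and Sdhd rose by 0.91 ± 0.13 and 1.28 ± 0.22 at day 3 (edgeR adjusted p of 0.000366 and 0.000915). Sdha, the flavoprotein that oxidises succinate, was at 106 and 95.9 CPM uncrushed and 99.7 and 97.6 at day 3, and its log2 fold changes of 0.00 ± 0.10, 0.25 ± 0.10 and 0.16 ± 0.10 at days 3, 5 and 7 did not pass the test.

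In complex III, which passes electrons from ubiquinol to cytochrome c, 6 of 8 nuclear subunits were higher at each day, against the same 26.9%, 29.0% and 25.0% of all genes. The mitochondrial subunit CYTB, which carries the quinone sites, was at 2909 and 4789 CPM uncrushed, 6820 and 7000 at day 3, 5336 and 4155 at day 5, then 5754 and 6887 at day 7. Day 3 and day 7 libraries exceeded both uncrushed ones and day 5 overlapped them. The log2 fold changes of CYTB were 0.88 ± 0.22 at day 3, 0.33 ± 0.21 at day 5 and 0.74 ± 0.22 at day 7 (edgeR adjusted p of 0.00702, 0.219 and 0.0184). Uqcrb, a nuclear subunit bound to the quinone pocket, rose from 10.7 and 13.4 CPM to between 18.9 and 22.0 CPM in all 6 crushed libraries, by 0.89 ± 0.14 on the log2 scale at day 3 (edgeR adjusted p = 0.000557).

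Complex IV, cytochrome c oxidase, held the largest rise among nuclear members at days 3 and 5. Cox5b, a zinc-binding subunit, was at 18.2 and 23.9 CPM when Schwann cells were uncrushed, 84.3 and 96.5 at day 3, 72.4 and 76.0 at day 5, then 50.2 and 56.9 at day 7. Every crushed library was above both uncrushed ones, and day 7 was below day 3. The log2 fold changes of Cox5b were 2.14 ± 0.15, 1.84 ± 0.15 and 1.37 ± 0.15 (edgeR adjusted p of 2.3e-06, 6.87e-06 and 6.6e-05). COX1 was at 12457 and 13789 CPM uncrushed, 25002 and 26030 at day 3, 16996 and 12589 at day 5, then 17310 and 19440 at day 7, and its log2 fold change was 0.99 ± 0.15 at day 3 (edgeR adjusted p = 0.00035), 0.20 ± 0.15 at day 5 and 0.51 ± 0.15 at day 7. COX2, which accepts electrons from cytochrome c, rose at day 3 by 0.55 ± 0.13 (edgeR adjusted p = 0.0066). COX3, a core subunit without a redox centre, was at 2938 and 5685 CPM uncrushed, and its 0.62 ± 0.27 at day 3 did not pass (edgeR adjusted p = 0.0761).

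Several complex IV subunits exist as a widely expressed form and a form restricted to muscle, lung or testis. Of the widely expressed forms, Cox4i1 rose by 0.89 ± 0.17 at day 3 in Schwann cells, Cox6a1 by 0.93 ± 0.15 and Cox8a by 1.52 ± 0.20 (edgeR adjusted p of 0.00178, 0.000533 and 0.000138). Cox8a went from 16.4 and 27.8 CPM to 61.7 and 62.0 at day 3 and between 51.2 and 56.9 CPM later, without overlap. Cox7a2 was at 13.7 and 15.1 CPM uncrushed and 13.4 to 18.1 CPM after crush, and its 0.30 ± 0.14 at day 3 did not pass. Cox4i2, the form of lung and oxygen-sensing cells, had 0 to 4 counts in each Schwann cell library and 13 to 39 in each whole nerve library. Cox6b2, the testis form, lay at 0.477 to 1.48 CPM in Schwann cells and no day passed the test.

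Complex V, the ATP synthase, had 9 of 14 nuclear subunits higher at day 3, 13 at day 5 and 12 at day 7 (26.9%, 29.0% and 25.0% of all genes). Atp5g2, which encodes subunit c of the rotor ring, was at 22.2 and 33.4 CPM uncrushed, 67.3 and 79.8 at day 3, 84.6 and 90.6 at day 5, then 85.4 and 81.8 at day 7. Its libraries did not overlap, and its log2 fold changes were 1.44 ± 0.17, 1.68 ± 0.18 and 1.61 ± 0.18 (edgeR adjusted p of 9.52e-05, 3.82e-05 and 6.81e-05). Atp5g3, another gene of subunit c, rose by 0.69 ± 0.11 at day 3, and Atp5l, subunit g, by 0.68 ± 0.12. The mitochondrial subunit ATP6, the proton channel of the stator, was at 1280 and 1531 CPM uncrushed, 2820 and 2902 at day 3, 1464 and 1093 at day 5, then 2392 and 2343 at day 7. ATP6 thus rose by 1.06 ± 0.15 at day 3, was lower at day 5 than at day 3 by -1.17 ± 0.15 and higher again at day 7 than at day 5 by 0.89 ± 0.15 (edgeR adjusted p of 0.000223, 0.00155 and 0.0204).

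**Figure D3:**
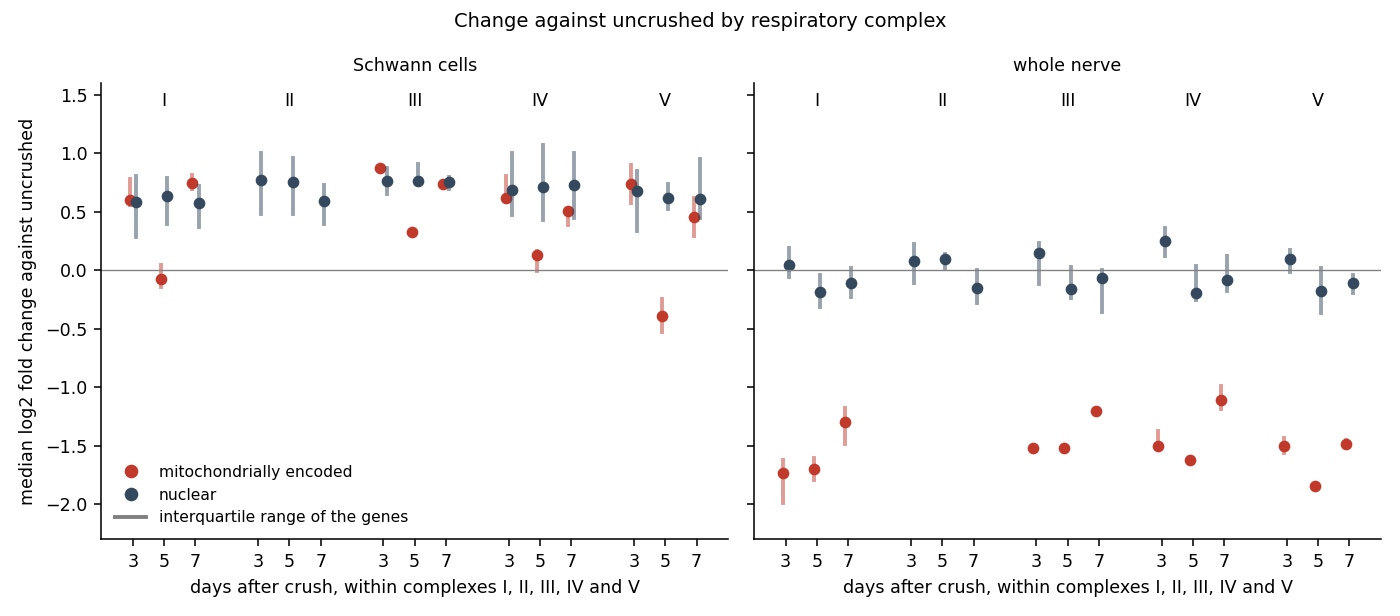
Median log2 fold change against uncrushed (points) and interquartile range over the genes (bars) by complex, genome and day, in Schwann cells (left) and whole nerve (right). In Schwann cells the nuclear medians of complexes I to V lie between 0.58 and 0.78 in each complex and day, whereas those of the mitochondrial genes of complex I are 0.60, -0.07 and 0.75.

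In whole nerve the mitochondrial members fell together after crush and the medians of the nuclear members stayed within 0.17 of 0 on the log2 scale. At day 3, all 13 mitochondrial members were lower than in uncrushed nerve, at a median log2 fold change of -1.54, where 22.5% of all 15831 genes were lower and their median was 0.00. Of 76 nuclear members, 14 were higher and 5 lower at a median of 0.12, where 23.1% of all genes were higher and 45.6% called in either direction. At day 5, all 13 were lower at a median of -1.66 (19.5% of all genes lower, 38.4% in all), with 3 nuclear members higher (18.9% of all genes) and 15 lower at a median of -0.17, beside an all-gene median of -0.01. At day 7, all 13 were lower at a median of -1.25 (15.9% of all genes lower, 31.3% in all), with 0 nuclear members higher (15.4% of all genes) and 9 lower at a median of -0.10, beside an all-gene median of 0.02. For every mitochondrial member, both uncrushed libraries lay above all 6 crushed ones, as for 21.7% of all genes, and the member was called lower at each day, as were 11.3% of all genes. Of the 76 nuclear members, 4 were called lower at each day (Atp5s, Ndufs4, Ndufv2, Uqcr11).

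Markers of other cells moved with these groups. The summed TPM of 7 skeletal muscle genes was 43.5 in uncrushed whole nerve replicate 1 and 662 in replicate 2, 8.75 to 72.2 in crushed whole nerve and at most 6.12 in Schwann cells. Without uncrushed replicate 2, all 13 mitochondrial members were still called lower at each day, and the nuclear calls were 14 at day 3, 10 at day 5 and 7 at day 7. The summed TPM of 5 macrophage genes was 181 and 197 in uncrushed whole nerve, 758 to 801 at day 3, 505 to 525 at day 5 and 483 to 502 at day 7, and 4.8 to 22.8 in Schwann cells. Sox10, a transcription factor of the Schwann cell lineage, was at 33.7 and 45.5 TPM in uncrushed and 42.4 to 81.8 TPM in crushed whole nerve, and at 134 and 153 TPM in uncrushed and 122 to 186 TPM in crushed Schwann cells. S100b, a calcium-binding protein of Schwann cells, was at 3090 and 2805 TPM in uncrushed whole nerve and 1280 to 2467 TPM after crush, and at 1210 and 942 TPM against 2095 to 3750 TPM in Schwann cells. In whole nerve the neuregulin receptor Erbb3 was at 45.3 and 54.5 TPM uncrushed and 109 to 176 TPM after crush, and the neurotrophin receptor Ngfr at 19.8 and 21.1 TPM against 273 to 802 TPM. All 5 macrophage genes had counts in each group. Summed TPM of 6 adipocyte genes was 1494 to 2836 in uncrushed and 2354 to 4054 in crushed whole nerve, with Ucp1 at 0, and at most 6.92 in Schwann cells. Fibroblast genes (5) lay at 6206 to 9430 in whole nerve and 462 to 1306 in Schwann cells, endothelial genes (5) at 123 to 183 and 1.79 to 11.1, red blood cell genes (3) at 1114 to 4380 and 19.1 to 172, perineurial genes (3) at 188 to 364 and 23.7 to 46.6, and genes of pericytes and smooth muscle (4) at 379.5 to 591 and 14.8 to 108. In Schwann cells the last sum was 76.4 and 108 uncrushed and 14.8 to 32.9 after crush. Not every gene followed its sum. In uncrushed libraries, Pdgfrb of the pericyte list was at 76.5 and 63.9 TPM in Schwann cells against 13.4 and 16.7 TPM in whole nerve. Col1a2 of the fibroblast list was at 565 and 28.0 TPM against 0.04 and 0 TPM. Apart from leaving out the library with the most muscle signal, the part of these cells in the results was not tested. The 18S ribosomal RNA gene Rn18s held 1.59% to 4.55% of counts, and its uncrushed and crushed libraries overlapped in both tissues.

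At day 3 in whole nerve, the 5 largest falls were of complex I subunits (ND6, ND2, ND5, ND4, ND1), and the smallest was of ND3, also of complex I. ND6, the subunit encoded on the opposite strand to the other mitochondrial members, was at 427 and 399.5 CPM in uncrushed whole nerve, 88.2 and 84.0 at day 3, 93.6 and 116 at day 5, then 124 and 137 at day 7. Its log2 fold changes were -2.33 ± 0.11, -2.08 ± 0.11 and -1.76 ± 0.11 (edgeR adjusted p of 1.19e-07, 3.45e-07 and 1.81e-06). ND2 was at 9269 and 8803 CPM uncrushed, 1936 and 2170 at day 3, 2600 and 2645 at day 5, then 2945 and 3472 at day 7. Its log2 fold change was -2.21 ± 0.10 at day 3 (edgeR adjusted p = 9.94e-08), and day 7 was higher than day 3 by 0.62 ± 0.10 (edgeR adjusted p = 0.00181). ND3 fell by 1.00 ± 0.13 on the log2 scale, from 139.6 and 153 CPM to 65.7 and 87.2 (edgeR adjusted p = 0.000105). The library kit does not keep strand, so reads of ND6 and of the precursor of the other strand cannot be told apart. ATP8 overlaps ATP6 and ND4L overlaps ND4 on the same strand, so with any kit a read of the overlap can come from either gene. Counts of the 13 mitochondrial members were whole numbers, and how reads of the overlaps were assigned was not tested.

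COX1 was at 75670 and 68568 CPM in uncrushed whole nerve, 26339 and 25550 at day 3, 26356 and 23217 at day 5, then 30483 and 34077 at day 7. Uncrushed libraries were far above all crushed ones, with log2 fold changes of -1.54 ± 0.10, -1.64 ± 0.10 and -1.25 ± 0.10 (edgeR adjusted p of 8.79e-07, 7.93e-07 and 7.33e-06). COX2 went from 6562 and 5939.8 CPM to 2631 and 2919 at day 3 and 3694 and 3616 at day 7, and was higher at day 7 than at day 3 by 0.37 ± 0.09 (edgeR adjusted p = 0.0143). CYTB went from 23332 and 20568 CPM to 8358 and 7673 at day 3, by -1.52 ± 0.11 on the log2 scale (edgeR adjusted p = 1.78e-06). ATP6 and ATP8 fell by 1.62 ± 0.11 and 1.37 ± 0.30 on the log2 scale at day 3, and ATP8, a short gene, was at 170.2 and 168 CPM uncrushed and 35.8 to 87.2 CPM after crush.

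From day 3 to day 7 in whole nerve, some mitochondrial members rose and some nuclear members fell. Of 13 mitochondrial members, 6 were higher (9.85% of all genes) at a median of 0.37 and none lower, and of the 76 nuclear members 17 were lower (11.4% of all genes lower, 21.2% in all) at a median of -0.21 and none higher, beside an all-gene median of 0.00. Without 1 library the mitochondrial count ran from 3 (without either day 3 library) to 10 (without day 7 replicate 1). The nuclear count was 5 without day 3 replicate 1, 7 without day 3 replicate 2 and 11 without day 7 replicate 2. This step was also added after the data had been seen.

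Among nuclear members of whole nerve, Cox5b had the largest log2 fold change at day 3. It was at 54.4 and 51.4 CPM uncrushed, 110.5 and 100.1 at day 3, 75.8 and 73.7 at day 5, then 61.7 and 62.6 at day 7. All crushed libraries were above the uncrushed ones, closest at day 7. Its log2 fold changes were 0.92 ± 0.09, 0.40 ± 0.09 and 0.14 ± 0.09 (edgeR adjusted p of 1.44e-05, 0.00526 and 0.278). Ndufb6 rose by 0.62 ± 0.11 and Sdhb by 0.36 ± 0.09 at day 3 (edgeR adjusted p of 0.00106 and 0.0105). Sdha, of the same complex as Sdhb, fell by 0.34 ± 0.09 on the log2 scale at day 3 (edgeR adjusted p = 0.0111), from 156 and 138 CPM to 121 and 123.

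Ndufs4 was at 121 and 134 CPM in uncrushed whole nerve, 76.9 and 75.2 at day 3, 87.1 and 88.7 at day 5, then 78.8 and 90.0 at day 7, below both uncrushed libraries throughout. Its log2 fold changes were -0.82 ± 0.10, -0.63 ± 0.10 and -0.69 ± 0.10 (edgeR adjusted p of 6.15e-05, 0.000476 and 0.000357). Ndufv2 went from 60.1 and 64.1 CPM to between 33.5 and 44.0 CPM, by -0.81 ± 0.11, -0.84 ± 0.11 and -0.65 ± 0.11. Ndufs1, of the same arm of complex I as both, was at 76.3 and 66.6 CPM uncrushed, 78.1 and 78.9 at day 3, 98.8 and 98.2 at day 5, then 76.9 and 74.2 at day 7, and rose at day 5 by 0.36 ± 0.09 (edgeR adjusted p = 0.00949). Uqcr11, a small subunit of complex III, and Atp5s, the coupling factor B related to complex V, were called lower at each day as well, at log2 fold changes of -0.37 to -0.73. Both are named after their values were seen.

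The number of nuclear calls in whole nerve depended on which libraries entered the fit. With all 16 libraries in 1 fit, where the all-gene medians were 0.07 at day 5 and 0.10 at day 7, there were 4 nuclear members higher and 9 lower at day 5, at a median of -0.07, and 2 higher and 5 lower at day 7, at a median of -0.01. Against 19 calls at day 3 there were 10 without day 3 replicate 1 and 12 without day 3 replicate 2, and against 18 at day 5 there were 10 without uncrushed replicate 2, 11 without day 5 replicate 1 and 9 without day 5 replicate 2. The 13 mitochondrial calls of each day held without any single library of whole nerve.

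**Figure D4:**
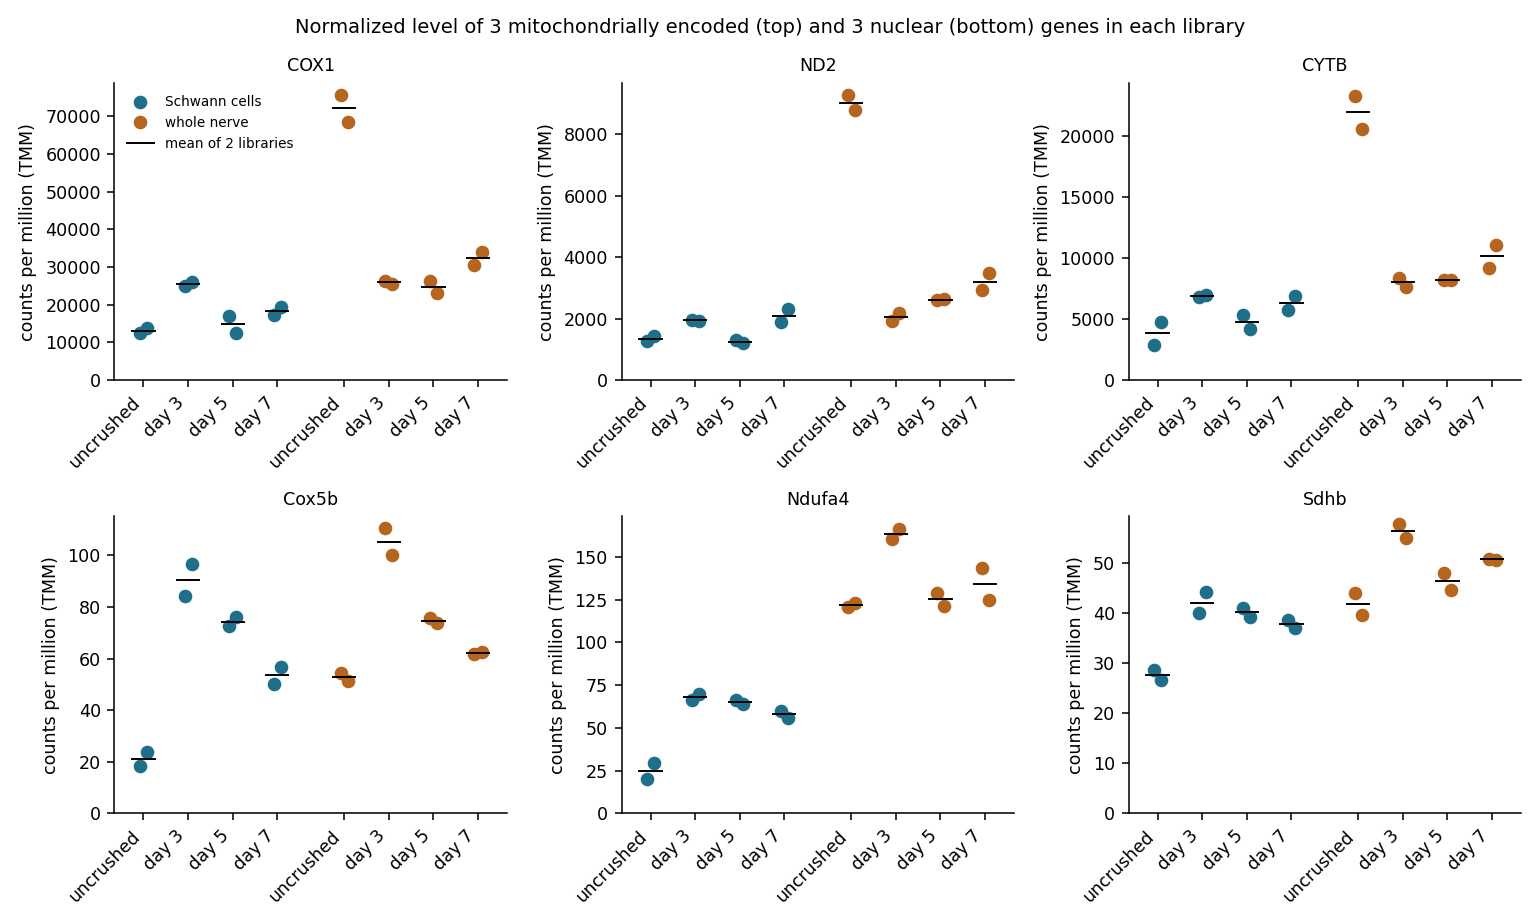
CPM (TMM, linear axes from 0) of COX1, ND2 and CYTB (top, mitochondrial) and Cox5b, Ndufa4 and Sdhb (bottom, nuclear) in each library, with a line at the mean of 2. COX1 is at 75670 and 68568 in uncrushed whole nerve and between 12457 and 34077 elsewhere, whereas Cox5b rises from 18.2 and 23.9 to 84.3 and 96.5 in Schwann cells.

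Schwann cells were compared with whole nerve at the same time in a fit of the 16 libraries, which tested 77 nuclear members and 16829 genes. On the TMM scale of this fit, uncrushed Schwann cells had lower levels of nearly every member. By group mean TPM some nuclear members went the other way, as Atp5b at 866 TPM against 624 TPM in whole nerve. Others kept the direction, as Ndufa4 at 94.1 against 264 TPM. The counts that follow are on the TMM scale. All 13 mitochondrial members were lower at a median log2 difference of -2.53, and 72 nuclear members were lower and 1 higher, the record named Cox7a1 whose identity is doubtful, at a median of -1.30, where 35.3% of all genes were lower, 29.1% higher (64.4% in all) and their median was -0.10. Cox7a1 was no longer called without either uncrushed Schwann cell library or without uncrushed whole nerve replicate 1, and a minimum of 10 counts in every library left it untested. Ndufa4 was at 20.4 and 29.4 CPM in Schwann cells and 120.5 and 123 CPM in whole nerve, a log2 difference of -2.29 ± 0.14, and COX1 differed by -2.46 ± 0.14 (edgeR adjusted p of 4.53e-09 and 3.04e-09).

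After crush the difference narrowed, most for the mitochondrial members at day 3. There 2 mitochondrial members were lower, ND3 and COX2, at a median of -0.17 over the 13, whereas 66 of 77 nuclear members were lower at a median of -0.84 (32.8% of all genes lower, 24.5% higher, 57.3% in all). COX1 was at 25002 and 26030 CPM in Schwann cells and 26339 and 25550 CPM in whole nerve, a difference of -0.02 ± 0.13. ND3 was at 32.4 and 32.8 against 65.7 and 87.2 CPM, a difference of -1.23 ± 0.13 (edgeR adjusted p = 2.05e-06). Among nuclear members Cox7b, a small subunit of complex IV, was at 85.1 and 86.2 CPM in Schwann cells and 244 and 237 CPM in whole nerve, a difference of -1.49 ± 0.12 (edgeR adjusted p = 1.21e-07). The count of 2 was 1 without either Schwann cell library of day 3 or without whole nerve replicate 2, and 4 without whole nerve replicate 1. At day 5 all 13 mitochondrial members were lower in Schwann cells at a median of -1.07, and 52 nuclear members at -0.51 (28.4% of all genes lower, 23.2% higher, 51.7% in all). At day 7, 12 mitochondrial members were lower at -0.67 and 58 nuclear members at -0.63 (28.7% of all genes lower, 22.4% higher, 51.0% in all). Upper quartile normalization moved the all-gene median upward by 0.09 at day 3, 0.14 at day 5 and 0.10 at day 7, and the medians are read relative to that shift. With it the mitochondrial median of day 3 was -0.07 and the all-gene median -0.01, so that the median of the members relative to all genes hardly moved, and COX2 was no longer called (edgeR adjusted p = 0.0597). With TMM the all-gene median was -0.11 at day 3 and -0.03 at days 5 and 7. Schwann cells went through dissociation and panning and whole nerve did not, so tissue and preparation cannot be told apart in these libraries. A control of dissociated nerve that the study describes was not analysed here.

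The change after crush was then compared between the tissues as an interaction in the same fit. It uses the same uncrushed Schwann cell libraries, so crush and the recovery of cells cannot be told apart here either. At day 3 the change was higher in Schwann cells for 13 of 13 mitochondrial members, at a median log2 difference of 2.39, and for 29 of 77 nuclear members, at 0.40, where 12.3% of all genes were higher. At day 5 it was higher for 12 mitochondrial members at 1.63 and for 51 nuclear members at 0.68 (12.6% of all genes). At day 7 it was higher for 13 mitochondrial members at 1.83 and for 42 nuclear members at 0.56 (11.6% of all genes). No member was called in the other direction at any day, where 13.7%, 14.9% and 14.4% of all genes were. In either direction, 26.0% of all genes were called at day 3, 27.5% at day 5 and 26.0% at day 7, and the all-gene medians were -0.04, -0.04 and -0.07. Without Schwann cell day 3 replicate 2 the nuclear count at day 3 was 15, and without whole nerve day 3 replicate 2 it was 16.

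**Figure D5:**
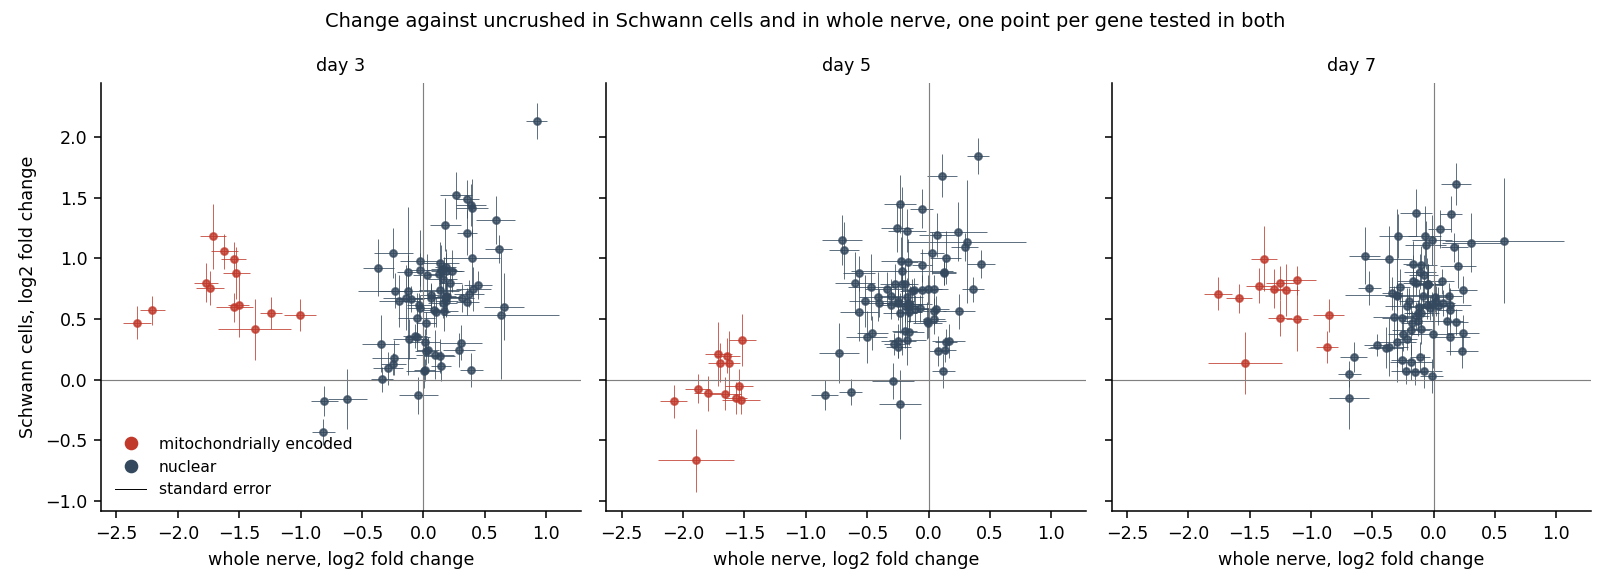
Log2 fold change against uncrushed in Schwann cells (vertical) and in whole nerve (horizontal) at days 3, 5 and 7, with a point per gene tested in both and bars for the standard error. Mitochondrial genes lie left of 0 at each day (medians -1.54, -1.66 and -1.25 in whole nerve), and most nuclear genes lie above 0 (medians 0.67, 0.65 and 0.62 in Schwann cells).

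Other genes of mitochondria were followed in 5 lists, whose medians are to be read beside all-gene medians of 0.00, 0.06 and 0.06 in Schwann cells and 0.00, -0.01 and 0.02 in whole nerve. The lists' counts are read against the shares of all genes called: in Schwann cells 26.9%, 29.0% and 25.0% higher and 25.7%, 25.6% and 21.9% lower at days 3, 5 and 7, and in whole nerve 23.1%, 18.9% and 15.4% higher and 22.5%, 19.5% and 15.9% lower. Of 47 assembly factors and accessory proteins of the respiratory chain tested in Schwann cells, 15 were higher and 3 lower at day 3, 23 and 4 at day 5, then 18 and 3 at day 7. The share higher at day 3 was thus near that of all genes. Atpif1, the inhibitor of ATP synthase reversal, went from 26.8 and 28.4 CPM to 51.2 and 52.7 at day 3, by 0.95 ± 0.11 on the log2 scale, and Higd1a, a hypoxia-induced protein, from 43.0 and 37.9 to 22.4 and 23.5, by -0.78 ± 0.15 (edgeR adjusted p of 9.07e-05 and 0.00179). In whole nerve 4 of 48 were higher and 8 lower at day 3, 6 and 6 at day 5, then 2 and 6 at day 7. The medians were 0.25, 0.48 and 0.40 in Schwann cells and -0.01, -0.07 and -0.13 in whole nerve. Cox19, a copper chaperone of complex IV assembly, rose by 0.58 ± 0.13 and Coa5, another assembly factor, fell by 0.49 ± 0.11 at day 3.

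The list of mitochondrial transcription, RNA processing and copy number did not move one way. In Schwann cells 4 of 25 were higher and 5 lower at day 3, 4 and 3 at day 5, then 4 and 2 at day 7, and in whole nerve 5 and 3, 3 and 3, and 2 and 2. In Schwann cells at day 3, both counts were below the shares of all genes (26.9% higher, 25.7% lower). The medians were -0.21, 0.13 and -0.00 in Schwann cells and 0.02, 0.13 and 0.09 in whole nerve. Tfb2m, a transcription factor of the mitochondrial promoters, rose by 0.69 ± 0.13 and Polg2, the accessory subunit of the DNA polymerase, fell by 1.13 ± 0.24 on the log2 scale in Schwann cells at day 3 (edgeR adjusted p of 0.00138 and 0.00344). In whole nerve Slirp, an RNA-binding partner of Lrpprc, went from 8.98 and 10.4 CPM to 20.5 and 20.2 at day 3, by 1.01 ± 0.14 (edgeR adjusted p = 0.000237). Tfb1m, which methylates mitochondrial ribosomal RNA, went from 53.6 and 59.5 CPM to 20.6 and 18.9, by -1.59 ± 0.13 (edgeR adjusted p = 4.46e-06). It was at 15.2 to 20.7 CPM at days 5 and 7 and did not overlap the uncrushed libraries. Tfam, which packages and transcribes the genome and is named after its values were seen, was at 25.0 and 19.4 CPM in uncrushed whole nerve and 24.9 and 30.5 at day 3, a log2 fold change of 0.24 that did not pass (edgeR adjusted p = 0.249).

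Of 14 nuclear regulators of mitochondrial biogenesis tested in Schwann cells, none was higher (26.9%, 29.0% and 25.0% of all genes at days 3, 5 and 7) and 8 were lower at day 3, 7 at day 5 and 6 at day 7 (25.7%, 25.6% and 21.9% of all genes). Myc was at 239 and 242 CPM uncrushed and 31.4 and 36.0 at day 3, by -2.80 ± 0.16 on the log2 scale (edgeR adjusted p = 7.06e-07). Myc is an immediate early gene, and in uncrushed Schwann cells it was higher than in uncrushed whole nerve by 4.75 ± 0.24 (edgeR adjusted p = 9.75e-10), so the uncrushed level stood apart. The part of the isolation in that level was not tested. In whole nerve Myc was at 9.68 and 7.96 CPM uncrushed and 17.1 and 25.9 at day 3, and rose by 1.21 ± 0.25 (edgeR adjusted p = 0.00249). In whole nerve 3 of 15 regulators were higher and 7 lower at day 3, 3 and 4 at day 5, then 0 and 4 at day 7, where 23.1%, 18.9% and 15.4% of all genes were higher and 22.5%, 19.5% and 15.9% lower. The medians were -0.82, -0.71 and -0.55 in Schwann cells and 0.00, -0.11 and -0.19 in whole nerve. In whole nerve Pprc1, a coactivator of the PGC-1 family, rose by 0.80 ± 0.13, and Ppara, a nuclear receptor of fatty acid oxidation, fell by 1.74 ± 0.22 on the log2 scale at day 3. Nrf1 and Gabpa, whose letters were searched in the promoters and which are named after their values were seen, had log2 fold changes of -0.09 and 0.03 in Schwann cells at day 3 (edgeR adjusted p of 0.57 and 0.838).

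Enzymes of the tricarboxylic acid cycle and proteins of the outer membrane and import were called higher after crush in Schwann cells more often than lower. Of 12 cycle enzymes tested, 8 were higher at day 3, 11 at day 5 and 6 at day 7 and none lower, where 26.9%, 29.0% and 25.0% of all genes were higher. Dlst, a subunit of the oxoglutarate dehydrogenase complex, rose by 0.72 ± 0.10 at day 3 (edgeR adjusted p = 0.000263). In whole nerve 4 were higher and 2 lower at day 3, 1 and 3 at day 5, then 0 and 5 at day 7 (23.1%, 18.9% and 15.4% of all genes higher, 22.5%, 19.5% and 15.9% lower), with citrate synthase, Cs, higher by 0.45 ± 0.09 and Sucla2, a subunit of succinyl-CoA ligase, lower by 0.77 ± 0.12 at day 3. The medians were 0.37, 0.52 and 0.25 in Schwann cells and -0.05, 0.02 and -0.25 in whole nerve. Of 15 outer membrane and import genes, 10, 11 and 10 were higher at days 3, 5 and 7 in Schwann cells and none lower. In whole nerve 8 were higher and none lower at day 3, 5 and 1 at day 5, then 0 and 1 at day 7. The medians were 0.63, 0.56 and 0.43 in Schwann cells and 0.38, 0.23 and 0.03 in whole nerve. Vdac1, the main outer membrane channel, was at 103 and 115 CPM in uncrushed Schwann cells and 256 and 248 at day 3, a rise of 1.25 ± 0.10, and at 169 and 185 against 263 and 253.6 in whole nerve, a rise of 0.48 ± 0.09 (edgeR adjusted p of 5.37e-06 and 0.0011).

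Some members could not be measured by their symbol. In Schwann cells and in whole nerve, 89 of 96 members passed the filter on low counts, and 90 passed in the fit of the 16 libraries. Atp5f1, Cox7b2 and Cox8c were at 0 counts in all 16 libraries, and Ndufs6 had 2 counts in all. RefSeq's gene table ties Ndufs6 to a record listed as LOC679739, which had 3514 counts. Cox6b1, the widely expressed partner of Cox6b2, is not a symbol in the files, and the same table ties it to LOC688869, with 18051 counts. Cox6a2 and Cox8b, the muscle forms, had 34 and 28 counts in uncrushed whole nerve replicate 2, the library with the highest muscle markers, and at most 4 in each other library. Symbol Cox7a1 fell in Schwann cells at each day, from 2.00 and 2.55 CPM to at most 0.761 CPM. Its call was lost at day 5 without day 5 replicate 1 and at day 7 without either uncrushed library or without day 7 replicate 1, and a minimum of 10 counts in every library left it untested. Its record may be another gene, because RefSeq ties Cox7a1 to LOC687508, which had 1341 counts and fell by 0.89 ± 0.22 on the log2 scale at day 3 (edgeR adjusted p = 0.00643). Counts were not whole numbers for 12 nuclear members, among them Cox5a, Cox7a2, Ndufa12 and Uqcrc2, so their reads were shared with other records and their values are less certain.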

How the data were processed

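Paired-end libraries were made from pooled nerves with an amplification kit (Ovation V2) that keeps no strand and carries no molecular identifiers. The authors aligned reads with STAR to Rnor_6.0 and deposited RSEM expected counts per gene for each library, not normalized and with reads of several origins shared by model. The same deposited files hold TPM values (per length, scaled to a fixed total) and FPKM values, of which TPM served for levels between genes and FPKM was not used. The study's methods also describe FPKM from another aligner. A deposited table of gene modules has 24 columns of values that match no library and was not used.

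Expected counts were rounded, filtered with filterByExpr, scaled by TMM and tested with edgeR 4.0.16 (limma 3.58.1, R 4.3.3) by its quasi-likelihood test, with Benjamini-Hochberg adjustment over all genes tested and a threshold of 0.05. The 8 Schwann cell libraries, the 8 whole nerve libraries and all 16 libraries were each fitted once, the last for tissue differences and interactions. Printed CPM were scaled over all 16 libraries, whereas log2 fold changes within a tissue came from the fit of that tissue. For whole nerve against uncrushed, the all-gene medians differed by 0.05 to 0.09 between these fits, so small changes can look different in CPM. Values after ± are SE of log2 fold changes or differences. Members and lists were chosen with earlier results of these data known. Named genes were all mitochondrial members, the subunits of complex II, and tissue forms of complex IV and their partners. In each comparison and direction, the 2 nuclear members of lowest adjusted p were also named, apart from the steps between crushed days. For each list and direction, the gene of lowest adjusted p at day 3 was named. Others are said to be named after their values were seen. With 2 libraries against 2, an exact permutation test cannot go below p = 0.333, so none was used. Alternatives were DESeq2 1.42.0, upper quartile scaling, TMM without mitochondrial genes and Rn18s, other filters on low counts, a replicate block, another set of libraries in the fit and leaving out each library. On simulated counts of the Schwann cell fit over 14594 genes, edgeR found 51 of 88 genes changed 2-fold and 93 of 106 changed 4-fold, with 12 false among 156 calls. The simulation changed few genes and only in the day 3 group, whereas 52.5% of all genes were called at day 3 in the data. Recovery and the false share therefore need not hold for these data. Tables and figures used Python 3.11.15, numpy 2.4.6, pandas 2.3.3, scipy 1.17.1 and matplotlib 3.10.9. Of 6 Schwann cell marker genes, 4 are given singly and the sum is not reported here.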

Additional observations from a re-analysis of the deposited data

Results flagged for a closer look

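The change after crush differed between Schwann cells and whole nerve for many members by an interaction term in edgeR (adjusted p below the threshold). The numbers of mitochondrial members with a difference were 13, 12 and 13 at days 3, 5 and 7, and those of nuclear members were 29, 51 and 42, each with the change higher in Schwann cells. For ND2, the log2 difference was 2.68, 1.69 and 2.14 at the same days. For Cox5b it was 1.11 at day 3 and 1.32 at day 5, and for Uqcrb it was 0.91 at day 3 and 1.17 at day 7. Ndufa4 differed by 1.35 at day 5 and Ndufab1 by 0.87 at day 7.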

How the results depend on the processing

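Of the alternative values of the called counts, 314 stayed within 1.5 times the reported count and 48 moved further. No single gene that passed the test as reported or under an alternative had the opposite sign in the other, whereas 284 values lost and 112 gained a call. Genes that passed in neither could change sign. For mitochondrial members in Schwann cells at day 5 against uncrushed, 0 calls became 1 with upper quartile scaling, 1 with at least 10 counts in every library, 1 with DESeq2 and 2 without a filter, and ranged from 1 to 4 when 1 library was left out. From day 3 to day 5 in Schwann cells, leaving out 1 library gave 2 to 8 mitochondrial calls in place of 11. For nuclear members it gave 0 to 0 in place of 2, where DESeq2 gave 0, all 16 libraries in 1 fit gave 4 and the replicate block gave 1. From day 5 to day 7 the 6 mitochondrial calls became 12 without a filter and 0 to 4 without 1 library, and the 0 nuclear calls became 1 without a filter and 1 with all 16 libraries. In whole nerve, leaving out 1 library gave 10 to 14 nuclear calls in place of 19 at day 3 and 9 to 16 in place of 18 at day 5. From day 3 to day 7, the 17 nuclear calls became 11 with all 16 libraries and 5 to 13 without 1 library, and the 6 mitochondrial calls became 10 with upper quartile scaling, without a filter, with DESeq2 and with the replicate block, and 3 to 10 without 1 library. Between the tissues at day 3, the 2 mitochondrial calls became 1 with upper quartile scaling, 4 without a filter and 1 to 4 without 1 library. The 29 nuclear interaction calls of day 3 ranged from 15 to 32 without 1 library. The causes of these moves were not tested.

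No strong pairing by replicate number was seen. Correlations of same-numbered deviations were between -0.123 and 0.164 over all pairs of groups, highest for whole nerve at days 5 and 7. Among groups compared they exceeded 0.1 for uncrushed whole nerve with day 5 (0.129) and day 7 (0.104) and for the tissues at day 7 (0.114). With 2 libraries a group, the check cannot decide about a weak pairing. No label ties the numbers to a shared cohort, so the replicate block is an alternative only. With 2 libraries a group, where 1 is left out the lone library is assumed to vary like the others.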
